A study of Homo sapiens with 6 samples.

Results

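A set of 9 long non-coding RNAs, all linked with prostate cancer or with other tumors, PCGEM1, PCAT1, SCHLAP1, MALAT1, NEAT1, H19, HOTAIR, GAS5 and MEG3, were followed through acquired resistance to enzalutamide. They were chosen by name, and all 9 were found among the 58024 genes of the expression table, in 11 entries, since MALAT1 and PCGEM1 each have a second, short entry that was at 0 in every library. RNA-Seq had been performed on C4-2B parental and C4-2B enzalutamide resistant cells, with 3 libraries each. C4-2B is a castration resistant human prostate cancer line of the LNCaP lineage, and enzalutamide blocks the androgen receptor, the hormone-driven transcription factor of these tumors. Rising concentrations of enzalutamide, from 1 to 20 µM over 6 months or more, had been used to select the resistant cells, which 5 µM of the drug then maintained, and the parental cells were passaged beside them with dimethyl sulfoxide, given as 1% in the labels and as a lower concentration in the methods. Both cells grew in medium with 10% serum. Exposure to 10 µM enzalutamide before RNA extraction is described for both cells together, so that the drug present at harvest and the acquired resistance cannot be told apart in the resistant libraries, and the exposure of the parental libraries is not certain. There is 1 resistant line, and no source says whether its 3 libraries came from separate cultures, so that the p values measure the spread between these libraries.

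Long non-coding RNAs are transcripts that act without being translated. NEAT1 and MALAT1 stay in the nucleus, where NEAT1 builds paraspeckles and MALAT1 is found in nuclear speckles, the bodies that hold splicing factors. SCHLAP1, PCAT1 and PCGEM1 were described as transcripts of prostate tumors, HOTAIR is made from the HOXC cluster and is known to bind chromatin regulators, GAS5 carries small nucleolar RNAs (snoRNAs) in its introns, and H19 and MEG3 are imprinted transcripts expressed from the maternal chromosome.

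The values are FPKM, read fragments per kilobase of transcript relative to all mapped fragments, so that levels of different genes are given per length. For the comparison, 0.1 FPKM was added, log2 values were taken, and 24468 genes whose mean reached 0.1 FPKM were fitted with limma, a linear model that shares the estimate of spread between genes. A gene was called when its two-sided p, adjusted by the Benjamini-Hochberg method over all genes tested, was below 0.05. Each log2 fold change is resistant minus parental on the log2(FPKM + 0.1) scale. The table holds no read counts, and depths of 13500000 to 20400000 reads for the parental and 14100000 to 17800000 reads for the resistant libraries were estimated from the smallest values, with fragments of 200 bases assumed. A single read on SCHLAP1, for example, was then worth between 0.0396 and 0.0599 FPKM. A value of 0 is reported as listed at 0, because RPPH1, the RNA of ribonuclease P that every cell needs, had a 0 in all parental libraries too, in both of its entries. In the resistant libraries these entries were at 2685 to 3559 FPKM and at 82169 to 95233 FPKM. A 0 in all parental libraries beside a value above 0 in the resistant ones, as for HOTAIR and DCN, can therefore not be read as absence, and what gave the 0 values was not tested. All 10 luminal prostate markers examined were above 0 in every library, with a summed level of 4361 to 5062 FPKM in the parental and 1312 to 1409 FPKM in resistant libraries. Markers of other cells were low: the summed level of 5 fibroblast markers was 5.09 to 8.87 FPKM in the parental and 7.64 to 12.4 FPKM in resistant libraries, with DCN listed at 0 in all parental libraries and at 3.63, 3.78 and 4.35 FPKM in resistant libraries. The 4 leukocyte markers summed to at most 1.45 FPKM and the 3 endothelial markers to at most 1.14 FPKM in any library, and the T cell marker CD3E was listed at 0 throughout. The part of these differences in the results below was not tested.

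Of the 9 RNAs, 7 passed the filter on low values, and 6 of these were called. NEAT1, MALAT1, SCHLAP1 and PCAT1 were lower in the resistant cells, GAS5 and HOTAIR were higher, and H19 was not called. HOTAIR passed the filter through its resistant values alone, so that its call adds no support to its values. MEG3 and PCGEM1 were below the filter. In the same comparison 44.4% of all genes tested were called, 22.1% as higher and 22.3% as lower. Among the 4729 long non-coding RNA genes tested, 33.3% were called, 13.5% as higher and 19.8% as lower. The median log2 fold change was -0.05 over all genes and -0.30 over the long non-coding RNA genes. The 3 resistant values lay entirely above or entirely below the 3 parental values for the 6 called RNAs, as they did for 54.8% of all genes tested. For a single gene, the exact two-sided permutation test of 3 against 3 libraries cannot give a p below 0.1, and it gave p = 0.1 for each of these 6.

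**Figure D1:**
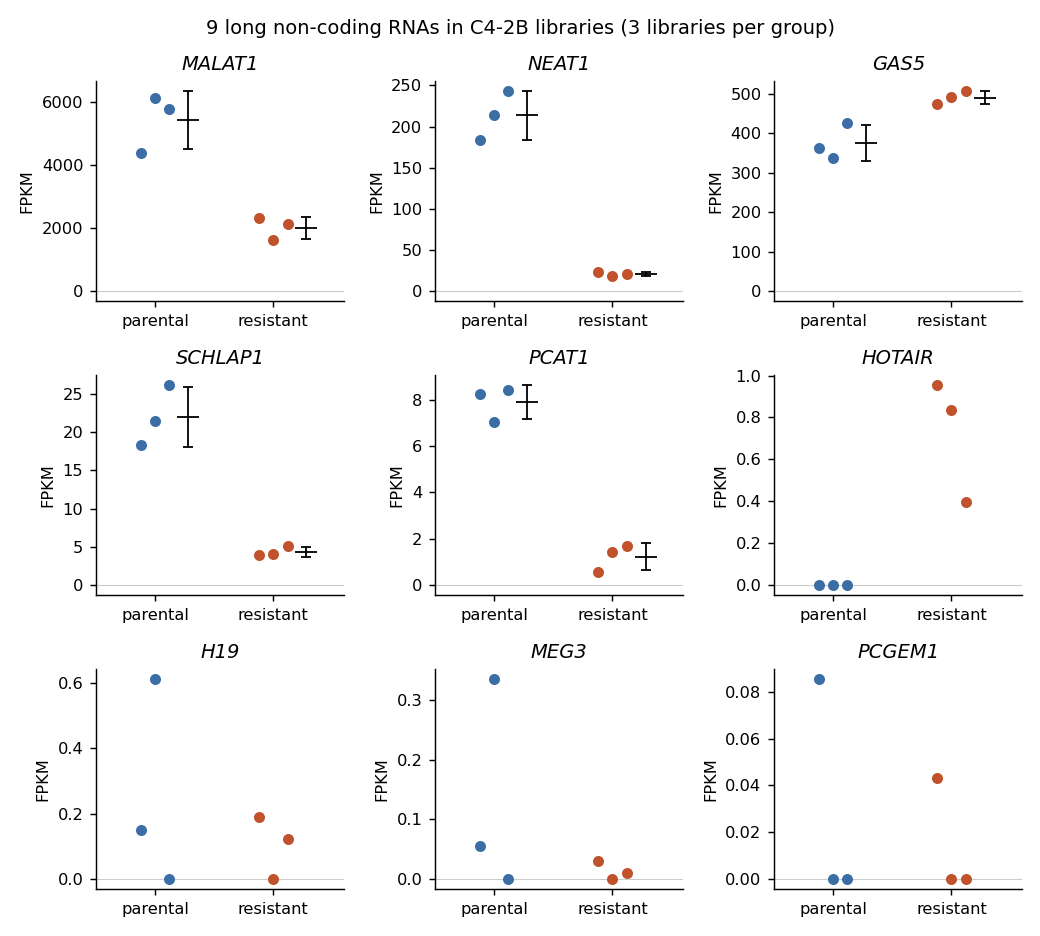
FPKM (vertical axis, a separate linear scale in each panel) of the 9 long non-coding RNAs in the 3 parental (blue) and 3 resistant (orange) C4-2B libraries, 1 point per library. Black bars give the mean ± SD for the 5 RNAs above 0 in every library. NEAT1, MALAT1, SCHLAP1 and PCAT1 lie lower in every resistant library, GAS5 and HOTAIR lie higher, and H19, MEG3 and PCGEM1 overlap.

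The order of the levels was the same for the 5 most abundant RNAs in both cells: MALAT1, GAS5, NEAT1, SCHLAP1 and PCAT1, and no 2 neighbors in this order overlapped between libraries of the same cells. Below them, H19, MEG3 and PCGEM1 overlapped with each other in both cells. HOTAIR, listed at 0 in the parental libraries, overlapped with PCAT1 in the resistant libraries. Among long non-coding RNA genes of at least 300 bases, MALAT1 ranked first in each parental library and 2 in each resistant library, where RPPH1, at 0 in the parental libraries, ranked above it. Without RPPH1, MALAT1 would rank first in every library. NEAT1 moved from ranks 9 to 11 in the parental to ranks 74 to 89 in the resistant libraries, while GAS5 stayed between ranks 4 and 6. SCHLAP1 went from ranks 73 to 109 to ranks 402 to 491, and PCAT1 from ranks 285 to 353 to ranks 1133 to 2299.

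**Figure D2:**
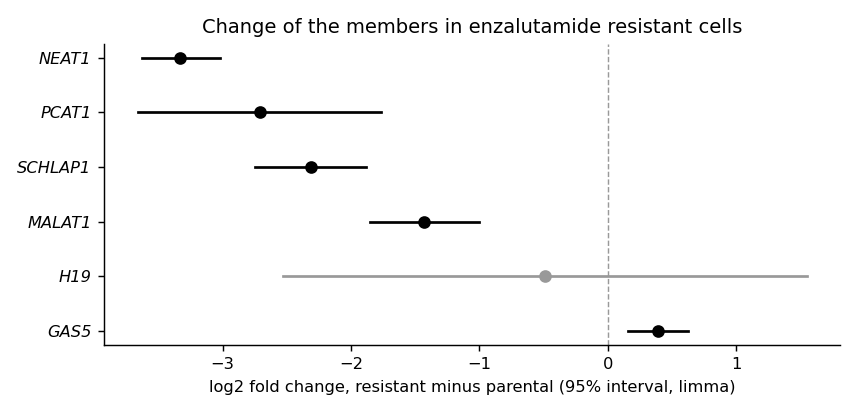
Log2 fold change (horizontal axis, resistant minus parental, on the log2(FPKM + 0.1) scale) with its 95% interval from limma for the 6 RNAs for which a fold change is given. Black marks RNAs that were called and grey the one that was not. NEAT1 is farthest to the left at -3.33, GAS5 is to the right of 0 at 0.39, and the interval of H19 spans 0.

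NEAT1 lies on chromosome 11 (GRCh38, chr11:65422774-65445540, plus strand). Its level was 183.6, 214.4 and 242.8 FPKM in parental libraries and 23.3, 19.2 and 20.9 FPKM in resistant libraries. Every resistant library was far below the lowest parental one, and the means, 213.6 ± 29.6 and 21.1 ± 2.04 FPKM (SD, n = 3 each), differed 10.1-fold. The log2 fold change was -3.33 (SE 0.13, limma, adjusted p = 1.37e-05). NEAT1 is made as a short and a long transcript from the same start, of which only the long one builds paraspeckles. The values here are per gene and do not separate them, and in bulk RNA fewer cells of a type and less RNA per cell cannot be told apart.

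Short stretches near the start of NEAT1, 3 in number, have entries of their own in the table, named NEAT1_1, NEAT1_2 and NEAT1_3. These are names of conserved stretches and not of the transcripts. They begin at bases 500, 865 and 1187 of the gene and are shown because their values can be compared with those of the whole gene. Their sequences on the plus strand of GRCh38, at chr11:65423273-65423392, chr11:65423638-65423742 and chr11:65423960-65424118, are given 5′ to 3′ without capitals, since no part is singled out.
NEAT1_1: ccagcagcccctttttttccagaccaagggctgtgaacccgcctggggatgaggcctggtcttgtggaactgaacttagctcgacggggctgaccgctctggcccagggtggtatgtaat
NEAT1_2: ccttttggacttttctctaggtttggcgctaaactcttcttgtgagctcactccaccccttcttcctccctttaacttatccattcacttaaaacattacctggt
NEAT1_3: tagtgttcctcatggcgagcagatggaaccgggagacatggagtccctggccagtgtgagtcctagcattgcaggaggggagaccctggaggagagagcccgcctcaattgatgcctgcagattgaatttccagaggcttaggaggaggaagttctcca

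NEAT1_3 was at 87.5, 83.3 and 68.3 FPKM in parental libraries and at 0, 8.96 and 0 FPKM in resistant libraries. NEAT1_2 was at 1130, 499.8 and 1505 FPKM against 153.9, 0 and 5.40 FPKM. NEAT1_1 was at 243.9, 207.8 and 90.8 FPKM against 45.9, 61.9 and 0 FPKM. The parental values were higher in each of the 3 stretches without overlap. In limma, NEAT1_3 (adjusted p = 0.0135) and NEAT1_2 (adjusted p = 0.0427) were called and NEAT1_1 (adjusted p = 0.167) was not. Reads on these stretches also belong to the gene around them, and how the counting split them is not given in the sources used here, so they are no independent measurement of NEAT1.

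The protein coding gene before NEAT1, FRMD8, was not called, with 18.5 ± 0.973 FPKM in the parental and 15.9 ± 1.29 FPKM in the resistant cells (SD, n = 3 each). Its log2 fold change was -0.22 (limma, adjusted p = 0.129). The pseudogene CMB9-22P13.1 on the other side was not called either, at -0.91 with adjusted p = 0.0609. Of 14 genes for paraspeckle proteins, a list that NEAT1 needs to form the body, 2 were called higher and 6 lower, which is 57.1% beside the 44.4% of all genes, and the median log2 fold change was -0.23. Of the core proteins that bind NEAT1 directly, SFPQ rose from 179.1 ± 16.7 to 226.5 ± 13.6 FPKM (log2 fold change 0.34, adjusted p = 0.0219), while NONO at -0.23 (adjusted p = 0.179) and PSPC1 at 0.25 (adjusted p = 0.0944) were not called. The RNA-binding proteins with the largest decreases were TAF15 (-0.97), TARDBP (-0.66), CPSF7 (-0.61) and HNRNPH3 (-0.59). The changes of these protein genes were thus smaller than that of NEAT1 itself. Without parental replicate 0, 5 paraspeckle protein genes were called instead of 8, and without the variance trend 5 were called as well.

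MALAT1 lies downstream of NEAT1 on the same strand (GRCh38, chr11:65497640-65508073). It was the most abundant of the 9 RNAs, with 4386.5, 6127 and 5757 FPKM in parental libraries and 2307, 1631 and 2116 FPKM in resistant libraries. The groups did not overlap, and the means of 5424 ± 917 and 2018 ± 349 FPKM (SD, n = 3 each) differed 2.69-fold. The log2 fold change was -1.43 (SE 0.18, limma, adjusted p = 0.00104). With quantile normalization, which gives every library the same distribution of values, the log2 fold change of MALAT1 was -2.12. Within each library the ratio of MALAT1 to NEAT1 was 23.9, 28.6 and 23.7 in the parental cells and 99.2, 85.0 and 101 in the resistant cells. This ratio does not depend on the scaling between libraries, and it was 3.75-fold higher in the resistant cells, so that NEAT1 and MALAT1 changed by unequal amounts (exact permutation test, p = 0.1, the smallest possible).

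RefSeq lists 2 start sites of MALAT1, and the sequences from 250 bases before to 50 bases after each start are shown because both nuclear RNAs of this locus fell and MALAT1 is the one of them with entries in the promoter table. They lie at chr11:65497488-65497787 and chr11:65498795-65499094 on the plus strand of GRCh38.p14. A set of 5 short motifs was searched on both strands: the androgen receptor half-site AGAACA or TGTTCT, the E-box CACGTG, the TATA box TATAAA or TTTATA, the GC box GGGCGG or CCGCCC and the CCAAT box CCAAT or ATTGG. Capitals mark the matches.
MALAT1 first start: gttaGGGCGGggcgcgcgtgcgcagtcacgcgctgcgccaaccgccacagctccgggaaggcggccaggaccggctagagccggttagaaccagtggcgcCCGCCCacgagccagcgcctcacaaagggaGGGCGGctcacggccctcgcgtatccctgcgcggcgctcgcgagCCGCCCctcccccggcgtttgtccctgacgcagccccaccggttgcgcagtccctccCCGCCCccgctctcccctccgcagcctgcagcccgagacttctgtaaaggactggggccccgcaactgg
MALAT1 second start: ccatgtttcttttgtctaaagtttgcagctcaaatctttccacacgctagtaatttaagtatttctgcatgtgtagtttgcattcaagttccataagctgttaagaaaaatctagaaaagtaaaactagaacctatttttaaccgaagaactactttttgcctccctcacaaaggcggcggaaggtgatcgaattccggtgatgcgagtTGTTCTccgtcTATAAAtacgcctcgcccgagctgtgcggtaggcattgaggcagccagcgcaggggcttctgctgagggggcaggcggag

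The window at the first start held 5 matches to the GC box and none to the other motifs. The window at the second start held the half-site beginning 41 bases and the TATA box beginning 30 bases before the start. Over the 35116 RefSeq promoter windows of the same length, a GC box was present in 45.0%, the half-site in 14.8%, a TATA box in 11.5%, an E-box in 7.26% and a CCAAT box in 34.6%. The half-site is only a part of a full androgen response element and is shared with other steroid receptors. A match is a description of the letters and not of binding. GAS5, H19, MEG3 and PCGEM1 also matched the table, which gives 5 of the 9 RNAs. PCAT1, SCHLAP1, NEAT1 and HOTAIR were without an entry.

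AP000769.7, an antisense RNA inside the 5′ part of MALAT1, was at 0.522, 0 and 1.93 FPKM in the parental and at 0, 0 and 0.357 FPKM in resistant libraries and was not called. Of 22 genes for nuclear speckle proteins, the splicing factors and scaffold proteins among which MALAT1 is found, 3 were called higher and 6 lower, which is 40.9% and near the background of 44.4%. Their median log2 fold change was -0.10, and it was 0.02 with quantile normalization. RBM25 (-0.65), PNN (-0.50) and U2AF2 (-0.45), all proteins of splicing, were lower, and the export adaptor ALYREF (0.49) was higher. Without the variance trend, 4 of the 22 were called instead of 9. The methods name a stranded total RNA kit, and the labels name both this and a TruSeq V2 kit. Kits differ in how far they keep RNA without a standard poly(A) tail, which MALAT1 and the long NEAT1 transcript lack, and the part of the kit in these values was not tested.

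SCHLAP1 lies on chromosome 2 (GRCh38, chr2:180692104-180916939, plus strand) and is known to counter the SWI/SNF chromatin remodeling complex. It was at 18.3, 21.5 and 26.2 FPKM in parental libraries and at 3.88, 4.03 and 5.08 FPKM in resistant libraries, without overlap. The means of 21.99 ± 3.98 and 4.33 ± 0.656 FPKM (SD, n = 3 each) differed 5.08-fold, and the log2 fold change was -2.31 (SE 0.18, limma, adjusted p = 1.65e-04). On its annotated length, and with the assumed fragment size, this corresponds to about 437 to 518 reads in a parental and 80.8 to 88.8 reads in a resistant library. Although lower, SCHLAP1 was therefore still detected in the resistant cells.

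Transcripts that overlap SCHLAP1 were lower too. AC009478.1, which starts within SCHLAP1 on the opposite strand, was at 7.65, 6.77 and 8.79 FPKM in the parental and at 1.17, 0.846 and 1.87 FPKM in resistant libraries (log2 fold change -2.55, limma, adjusted p = 8.59e-04). RP11-739A13.1, a short entry inside SCHLAP1, went from 43.8 ± 15.5 to 4.05 ± 1.52 FPKM (log2 fold change -3.41). A stranded kit is named in the methods, but whether reads were counted by strand is not given in the sources used here, so that it is not known how reads of SCHLAP1 and of these overlapping entries were divided. The next protein coding gene, the ubiquitin conjugating enzyme gene UBE2E3, was called lower with a log2 fold change of -0.40 (adjusted p = 0.0126).

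Of 22 genes for SWI/SNF subunits, 9 were called higher and 0 lower in the limma fit, and the median log2 fold change was 0.33. These 9 are 40.9% of the list, while 22.1% of all genes were called higher, 22.3% lower and 44.4% in either direction. When the libraries were rescaled without genes under 300 bases, SMARCE1 (-0.40) and SS18 (-0.42), named after their values were seen, were called lower. SMARCD3, a subunit that varies between tissues, was at 10.6, 12.2 and 8.37 FPKM in the parental and at 31.6, 39.1 and 55.1 FPKM in resistant libraries, a log2 fold change of 1.98. BCL7A (1.43), BCL7C (1.22) and PHF10 (1.07), accessory subunits, were also called higher. SMARCB1, the core subunit with which SCHLAP1 is known to interact, was at 72.6 ± 18.8 and 69.4 ± 3.11 FPKM (log2 fold change -0.03, limma, adjusted p = 0.918). The subunit genes that were called thus did not include the known partner of SCHLAP1.

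PCAT1 lies in the gene desert of chromosome 8 upstream of MYC (GRCh38, chr8:126556323-127419050, plus strand, in GENCODE v44). It was described as a transcript of prostate tumors that promotes proliferation. Its level was 8.23, 7.05 and 8.41 FPKM in parental libraries and 0.560, 1.44 and 1.67 FPKM in resistant libraries. The groups did not overlap, and resistant replicate 0 was lower than the other two. The means of 7.89 ± 0.740 and 1.22 ± 0.585 FPKM (SD, n = 3 each) differed 6.46-fold. The log2 fold change was -2.71 (SE 0.39, limma, adjusted p = 0.00196), and it was -2.27 without resistant replicate 0. With a pseudocount of 1 FPKM, which weighs more at these low levels, the PCAT1 log2 fold change was -2.03.

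The tested genes on either side of the locus that the table gives for PCAT1 were called lower as well. FAM84B was at 21.7 ± 0.679 and 11.8 ± 0.539 FPKM (log2 fold change -0.87, limma, adjusted p = 4.93e-04). PRNCR1, another long non-coding RNA of this region that was linked with prostate cancer, was at 0.782, 1.04 and 1.11 FPKM in the parental and at 0.157, 0.184 and 0.120 FPKM in resistant libraries (log2 fold change -2.08). Both lie partly or wholly within the wider PCAT1 entry of GENCODE v44. PVT1, the long non-coding RNA on the far side of MYC, was at 195.6, 268.2 and 317.5 FPKM against 59.6, 75.4 and 76.0 FPKM (log2 fold change -1.87). PCAT1, PRNCR1 and PVT1 were thus all lower in every resistant library. CASC11 and CCAT2, the other long non-coding RNAs of this region that are described here, were not called in limma. CASC11 had a log2 fold change of 0.49 (adjusted p = 0.662) and CCAT2 of -1.09 (adjusted p = 0.188).

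PCGEM1, a prostate specific transcript known from androgen responsive tumors, lies at chr2:192749845-192776899 on the plus strand. It was listed at 0.0856, 0 and 0 FPKM in parental libraries and at 0.0432, 0 and 0 FPKM in resistant libraries. It was below the filter, and values of this size are near the level of a few reads. When genes of every level were kept, it was tested and not called (-0.12, adjusted p = 0.791). No difference in PCGEM1 was therefore detectable at this depth. No tested gene lay within 500 kb of PCGEM1. The nearest one before it, at a distance of 554912 bases, was TMEFF2, which codes for a membrane protein of prostate and brain. It was at 0.787, 0.983 and 0.944 FPKM in parental libraries and at 29.1, 31.1 and 30.8 FPKM in resistant libraries. The log2 fold change of TMEFF2 was 4.92 (SE 0.14, limma, adjusted p = 5.57e-06). On the other side, at a distance of 2799078 bases, the zinc transporter gene SLC39A10 rose by 0.60 on the log2 scale.

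HOTAIR is transcribed from the minus strand within the HOXC cluster on chromosome 12 (GRCh38, chr12:53962308-53974956). It was at 0 in every parental library and at 0.956, 0.834 and 0.398 FPKM in resistant libraries. No fold change is given because the parental values were all 0. The adjusted p of 0.00260 in limma rests on parental values that are the pseudocount alone, in a gene that passed the filter through its resistant values, and is given as a description. HOXC11, a homeobox gene on the opposite strand that overlaps the first part of HOTAIR, was at 0.01996, 0.0731 and 0 FPKM in the parental and at 1.67, 1.54 and 1.78 FPKM in resistant libraries (log2 fold change 3.79, adjusted p = 4.41e-04). Like HOTAIR, HOXC11 passed the filter through its resistant values alone, and its fold change depends on the pseudocount. Its call is therefore also given as a description. How the counting divided reads in the shared part is not given in the sources used here. Inside HOTAIR lie 4 short entries, of which AC012531.2, away from HOXC11 but annotated on the opposite strand, was at 0 in every parental library and at 10.9, 10.9 and 18.0 FPKM in resistant libraries. The other entries inside HOTAIR were at 0 in at least 1 resistant library.

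Along the HOXC cluster, HOTAIR lay within a run of genes that were higher in the resistant cells. HOXC12, on one side of HOTAIR, rose from 3.21 ± 0.570 to 7.59 ± 0.305 FPKM (log2 fold change 1.23). On the other side, HOXC-AS3, an antisense RNA, was at 0.157, 0 and 0.456 FPKM in the parental and at 2.76, 7.60 and 2.91 FPKM in resistant libraries (4.06). HOXC10, which overlaps it, rose from 0.657 ± 0.427 to 11.4 ± 2.06 FPKM (4.06). These homeobox genes pattern the posterior body and limbs. Farther along, HOXC9 (1.10) and HOXC4 (2.14) were called higher, HOXC6 fell from 20.0 ± 3.29 to 6.30 ± 1.12 FPKM (-1.65), and HOXC8 and HOXC5 were not called. At the opposite end, HOXC13-AS was lower (-1.55) and HOXC13 was not called (-0.12, adjusted p = 0.659). The cluster thus held genes called in either direction, and the direct neighbors of HOTAIR, HOXC12 and HOXC-AS3, were among those called higher.

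**Figure D3:**
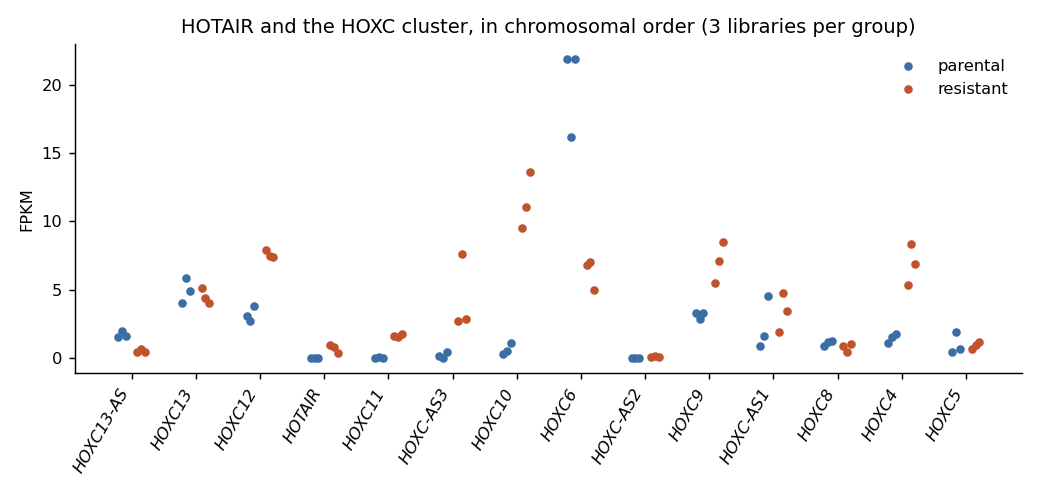
FPKM (vertical axis, linear) of HOTAIR and the other genes of the HOXC cluster, ordered along the chromosome from left to right without distances, in the 3 parental (blue) and 3 resistant (orange) libraries, 1 point per library. From HOXC12 to HOXC10 the resistant points lie above the parental points, HOTAIR stays below 1 FPKM, and HOXC6 lies lower in the resistant libraries.

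Of 10 genes for the polycomb repressive complex PRC2 and the LSD1 complex, 2 were called higher and 0 lower in the limma fit. HOTAIR is known to bind both complexes. These 2 are 20.0% of the list, while 22.1% of all genes were called higher, 22.3% lower and 44.4% in either direction. EZH2, the methyltransferase of PRC2, was at 19.9, 22.5 and 24.5 FPKM in the parental and at 32.7, 31.7 and 34.0 FPKM in resistant libraries (log2 fold change 0.56, limma, adjusted p = 0.00489). EZH1, its less active relative, had a log2 fold change of 0.54 (adjusted p = 0.0344). The core subunits SUZ12 (-0.14, adjusted p = 0.245) and EED (0.19, adjusted p = 0.149) were not called. The count of 2 was 1 without parental replicate 0, parental replicate 2, resistant replicate 0 or resistant replicate 2, and when the libraries were rescaled without genes under 300 bases, EZH1 was not called and JARID2, a PRC2 cofactor named after its values were seen, was called lower (-0.57).

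GAS5 lies on the minus strand of chromosome 1 (GRCh38, chr1:173858559-173868882) and accumulates when growth stops. It was at 363.1, 337.1 and 424.5 FPKM in parental libraries and at 473.4, 490.7 and 506.3 FPKM in resistant libraries. The lowest resistant value was above the highest parental one, but the change was small, with means of 374.9 ± 44.9 and 490.2 ± 16.5 FPKM (SD, n = 3 each) and a ratio of 1.31. The log2 fold change was 0.39 (SE 0.10, limma, adjusted p = 0.0161). The call was lost without parental replicate 0 (0.37, adjusted p = 0.0544), without resistant replicate 1 (0.39, adjusted p = 0.0518), without resistant replicate 2 (0.37, adjusted p = 0.0623) and without the variance trend (adjusted p = 0.0699). The snoRNAs that GAS5 carries have 21 entries under their symbols, of which none was placed inside GAS5 and none was above 0 in any library, so that the snoRNAs themselves were not measured here.

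GAS5-AS1, on the opposite strand within GAS5, was at 0.435, 0 and 0.325 FPKM in the parental and at 1.46, 1.72 and 1.63 FPKM in resistant libraries (log2 fold change 2.58, limma, adjusted p = 0.0208). CENPL, a centromere gene near the end of GAS5, rose by 0.54 on the log2 scale (adjusted p = 0.0347). ZBTB37, which overlaps the start of GAS5, was at 10.4 ± 0.805 and 10.5 ± 0.354 FPKM and was not called (0.02, adjusted p = 0.926).

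Other genes that host snoRNAs moved in both directions. Of 21 tested, 6 were called higher and 9 lower, which is 71.4% beside 44.4% of all genes, with a median log2 fold change of -0.34. SNHG5 was at 68.7, 56.8 and 51.8 FPKM in the parental and at 359.2, 315.4 and 305.2 FPKM in resistant libraries (log2 fold change 2.47). By contrast, SNHG4 (-2.10), SNHG3 (-1.83) and DANCR (-1.78) were lower. DANCR, for example, was at 260.4 ± 14.2 and 75.8 ± 5.14 FPKM (SD, n = 3 each). The change of GAS5 was smaller than that of every other host gene called.

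**Figure D4:**
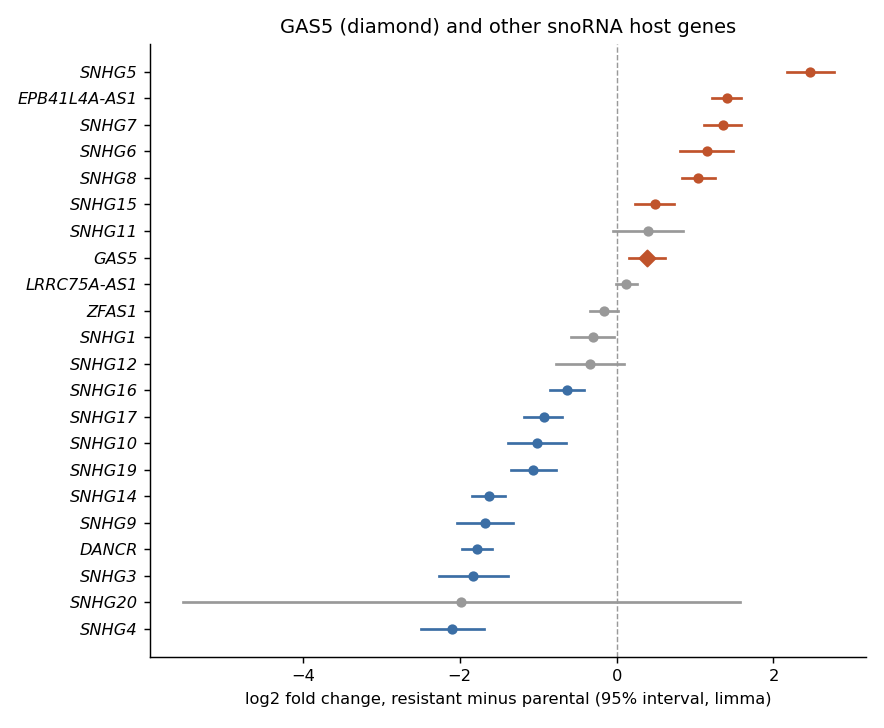
Log2 fold change (horizontal axis, resistant minus parental, log2(FPKM + 0.1) scale) with its 95% interval from limma for GAS5 (diamond) and the 21 other tested genes that host snoRNAs. Orange was called higher, blue lower and grey not called. Values run from -2.10 for SNHG4 to 2.47 for SNHG5, with GAS5 at 0.39.

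H19, on chromosome 11 (GRCh38, chr11:1995166-2004552, minus strand), was at 0.150, 0.614 and 0 FPKM in the parental and at 0.191, 0 and 0.122 FPKM in resistant libraries. The groups overlapped, and the log2 fold change of -0.49 had a 95% interval from -2.53 to 1.55 (limma, adjusted p = 0.667). Changes of more than 2-fold in either direction are within this interval. IGF2, the growth factor gene imprinted together with H19, was at 0.0729, 0.195 and 0.323 FPKM in the parental and at 0.0343, 0 and 0 FPKM in resistant libraries and was not called (adjusted p = 0.0831). MRPL23 on the other side, a mitochondrial ribosomal protein gene, was lower (-0.75, adjusted p = 0.0192). In the neighboring imprinted domain, the cell cycle inhibitor CDKN1C rose from 3.32 ± 0.226 to 6.36 ± 0.560 FPKM (0.92, adjusted p = 0.00325), the potassium channel gene KCNQ1 was lower (-1.68, adjusted p = 0.0227), and its antisense RNA KCNQ1OT1 was not called (-0.45, adjusted p = 0.246). MIR675, the microRNA within H19, was not analysed here.

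MEG3, on chromosome 14 (GRCh38, chr14:100779410-100861031, plus strand) and known as a growth inhibitor, was at 0.0552, 0.336 and 0 FPKM in the parental and at 0.0300, 0 and 0.0103 FPKM in resistant libraries. It was below the filter. When genes of every level were kept it was tested and not called, with adjusted p = 0.401. DLK1, the reciprocally imprinted gene of the domain, reached at most 0.0442 FPKM in any library, MEG8 reached 0.348 FPKM in 1 resistant library, and MIR770 was listed at 0. The nearest tested genes, BEGAIN (0.14, adjusted p = 0.879) and DIO3 (-0.58, adjusted p = 0.487), were not called. No change of MEG3 was thus detectable at this depth. DLK1, MEG8 and MIR770 were below the filter and were not tested, so that a change of the domain cannot be judged from these values.

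Of the 22 genes tested from the imprinted domains and the HOXC cluster together, 7 were called higher and 4 lower, which is 50.0% beside 44.4% of all genes, with a median log2 fold change of -0.14. Of 26 tested genes among other long non-coding RNAs that were linked with prostate cancer, 3 were called higher and 8 lower, which is 42.3%, with a median of -0.41. PCAT14 was at 0.0560, 0 and 0 FPKM in the parental and at 10.8, 11.01 and 12.5 FPKM in resistant libraries (log2 fold change 6.63). CTBP1-AS, an antisense RNA of the corepressor gene CTBP1, was at 2.12, 2.60 and 2.85 FPKM against 0.0538, 0 and 0 FPKM (-4.50). PCAT6 (-3.52) and PCAT19 (-3.36) were lower as well. Long non-coding RNAs of prostate cancer thus changed in both directions. The values of PCAT14 and CTBP1-AS depend on the pseudocount, since each was at 0 in 2 libraries of a group. Each also passed the filter through the other group alone, so that its call adds no support to its values. No called gene of the 7 lists turned its direction under the 3 other scalings. The calls of SRSF7 and EZH1 were lost when the libraries were rescaled without genes under 300 bases.

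**Figure D5:**
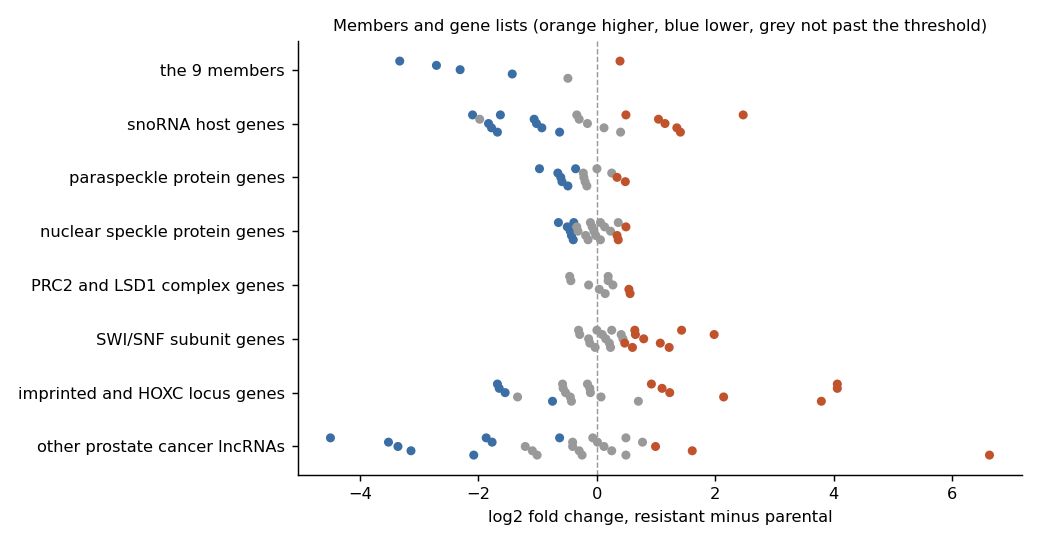
Log2 fold change (horizontal axis, resistant minus parental, log2(FPKM + 0.1) scale) of the members for which one is given and of the tested genes in the 7 lists, 1 point per gene, with small vertical shifts for legibility. Orange was called higher, blue lower and grey not called. In this fit the SWI/SNF and PRC2 lists have no blue point, and PCAT14 lies farthest to the right at 6.63.

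The decreases were unequal among the 4 RNAs that fell. Within each library, the ratio of NEAT1 to SCHLAP1 was 10.0, 9.98 and 9.27 in the parental cells and 5.99, 4.76 and 4.10 in the resistant cells, and was thus lower in every resistant library (exact permutation test, p = 0.1, the smallest possible). The ratio of NEAT1 to PCAT1 overlapped between the cells, at 22.3, 30.4 and 28.9 against 41.5, 13.3 and 12.5, and so did the ratio of SCHLAP1 to PCAT1. PCAT1 could therefore not be ordered against NEAT1 or SCHLAP1 beyond the spread between libraries. The ratio of MALAT1 to SCHLAP1 was 240, 285 and 220 in the parental and 594, 405 and 416 in the resistant cells, which places MALAT1 as the one that fell less.

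For each of the 5 most abundant RNAs, the genes with the most similar pattern were looked up among the 16381 genes that averaged 1 FPKM or more, by the root mean square difference of the centered log2 values over the 6 libraries. NEAT1 was most like JAKMIP3 (0.079), RP13-49I15.6 (0.105) and UNC5A (0.116). MALAT1 was most like the long non-coding RNA N4BP2L2-IT2 (0.060), TYRO3P (0.091) and RP11-166B2.8 (0.096). For SCHLAP1 these were FAM214A (0.077), EPHA6 (0.086) and ABCC1 (0.101), the last a gene for a drug efflux pump. For PCAT1 they were MLKL (0.170), ABCA17P (0.261) and ARC (0.264), and for GAS5 they were SMC2 (0.030), THYN1 (0.031) and ZNF107 (0.034). With 6 libraries in 2 groups, the likeness rests mostly on the difference between the groups, and none of these genes is a neighbor of the RNA it resembles.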

How the data were processed

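RNA-Seq of 3 C4-2B parental and 3 C4-2B enzalutamide resistant libraries was analysed. According to the paper's methods, the authors obtained 50 bp single-end reads, used TrimGalore 0.4.3 for trimming, STAR 2.5.3 for alignment to GRCh38 with GENCODE v25 and Cufflinks 2.2.1 for differential expression. The deposited values were taken as FPKM from Cufflinks, from their form, since the table names no unit. The submitters' processing notes name Trimmomatic 0.27, FastQC 0.10.1 and the mouse build mm10 instead, while the table holds human genes. Scaling between libraries is not given in the sources used here. GENCODE v44 gave positions for 56980 of 58024 genes. RefSeq gave promoter sequences.

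The FPKM values were compared on log2(FPKM + 0.1) with limma 3.58.1 (lmFit, eBayes with trend) in R 4.3.3 over 24468 genes whose mean reached 0.1 FPKM, two-sided, with Benjamini-Hochberg adjustment and a threshold of 0.05. The fit was tested on simulated data. A test on counts was not possible. No 2 libraries held identical values. Exact permutation tests used scipy 1.17.1, tables pandas 2.3.3 and numpy 2.4.6 in Python 3.11.15, and figures matplotlib 3.10.9. Estimated depths and values of single reads cover counting only and rest on single-transcript genes of 600 to 8000 bases.

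The 9 RNAs, the 7 gene lists and the rules were chosen with earlier results of these data known. Genes named from a list were at most 4 with the largest called log2 fold change, a mean of at least 1 FPKM and no overlap between the groups, beside genes set by name, the nearest tested gene on each side of a member and the 3 most alike genes. AP000769.7, AC012531.2, PVT1, CASC11, CCAT2, the other entries overlapping a member and further HOXC genes were named after their values were seen. Some genes covered by these choices are left out of the text. Alternatives covered the pseudocount, the filter, the scaling, short genes, a replicate block, the variance trend and each library left out.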

Additional observations from a re-analysis of the deposited data

How the results depend on the processing

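The number of genes called, 10868, ranged from 9021 to 11487 over 15 alternatives, and between 9303 and 10190 when single libraries were left out. Of the 9 RNAs, 4 were called lower under every alternative run. The number called higher was 1 instead of 2 at a mean of at least 1 FPKM, where HOTAIR was not tested, and 1 without the variance trend, where GAS5 was not called, and it lay between 1 and 2 when single libraries were left out. The log2 fold change ranged over the alternatives from -3.44 to -3.23 for NEAT1, from -2.12 to -1.28 for MALAT1, from -2.44 to -2.10 for SCHLAP1, from -2.98 to -2.03 for PCAT1, from 0.28 to 0.49 for GAS5 and from -1.18 to -0.04 for H19, and no direction turned where a value was computed. H19 fell below the filter and was not tested at a mean of at least 1 FPKM and without parental replicate 1, which holds its highest value. The adjusted p of HOTAIR was between 0.00135 and 0.0149. Without the variance trend, 5 paraspeckle, 4 nuclear speckle and 1 of the PRC2 and LSD1 genes were called, and with quantile normalization 4 of the latter. When single libraries were left out, the called paraspeckle genes ranged from 5 to 9 and the PRC2 and LSD1 genes from 1 to 2. The cause of these changes was not tested, except where fewer genes were tested.

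Libraries with the same replicate number did not deviate together (Pearson r across genes 0.008, 0.017 and -0.003), and no source pairs them. With a replicate block, 9463 genes were called, all 6 calls among the 9 RNAs were kept, and 1 instead of 2 of the PRC2 and LSD1 genes was called. The numbers therefore served as names only.

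No read counts were in the table used here, so that values near 0 of H19, MEG3, PCGEM1 and HOTAIR have no counting interval, and 3 libraries per group of 1 selected line limit what the comparison can show.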

Other observations

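Within 500 kb of each RNA, a distance chosen after the values were seen, 62 genes were tested around NEAT1, of which 11 were called higher and 14 lower, with a median log2 fold change of -0.02. Around SCHLAP1, 5 genes were tested, of which 0 were called higher and 3 lower in the limma fit, and around PCAT1 the numbers were 5, 0 and 2. Around HOTAIR, 46 were tested, 13 higher and 10 lower, around GAS5 17, 5 and 4, around H19 14, 2 and 5, and around MEG3 12, 0 and 1. Around PCGEM1, 0 genes were tested, and around MALAT1 the numbers were 61, 11 and 14. Over all genes tested, 22.1% were called higher and 22.3% lower, and whether any window differed from these shares was not tested. The genes called lower around SCHLAP1 include the opposite-strand transcript and the short entry that overlap SCHLAP1 itself. Entries that overlap an RNA, which NEAT1 and HOTAIR also have, are no independent neighbors of it.

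SNHG20, a host gene of snoRNAs, varied widely between libraries of the same cells. It was at 325.9, 118.4 and 10.5 FPKM in parental libraries and at 8.90, 89.9 and 8.12 FPKM in the resistant libraries, and was not called (log2 fold change -1.98, limma with Benjamini-Hochberg adjustment, adjusted p = 0.323).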
